A study of Mus musculus with 6 samples.

Results

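Vascular smooth muscle cells were examined in single-cell RNA sequencing of the non-cardiomyocytes of mouse hearts. They were selected on measured counts of unique molecular identifiers (UMIs, each standing for 1 captured RNA molecule): at least 3 Myh11 UMIs, at least 1 UMI summed over Cnn1, Mylk and Lmod1, at most 1 summed over Cdh5, Csf1r and Ptprc, and at most 5 of Myh6. Of 30014 cells with at least 1000 UMIs, at least 200 genes and at most 20% mitochondrial UMIs, 544 (1.81%) met this rule, 385 of them in sham-operated and 159 in infarcted hearts. The study compared wild-type (WT, strain C57BL/6JRj) with Trpm4 knockout (KO, strain B6.Cg-Trpm4tm1.2-PG) male mice of 8 to 12 weeks. Every mouse had surgery, either a sham operation or ligation of the left anterior descending (LAD) coronary artery, which infarcts the heart. Hearts were taken 24 h after the sham operation, 24 h after ligation or 72 h after ligation, in each genotype. Ventricles were digested with thermolysin and papain and strained. The live cells, sorted on Calcein-AM and DAPI, of 4 mice were pooled into 1 droplet library (10x Genomics 3′ chemistry) per group. The 6 libraries are the WT sham, KO sham, WT ligation 24 h, KO ligation 24 h, WT ligation 72 h and KO ligation 72 h library. A sham operation at 72 h was not analysed here, so a difference between 24 h and 72 h after ligation has no control for time. With 1 library per group no difference between conditions could be tested: intervals are exact 95% intervals that cover counting error only, not the spread between mice or preparations. The sources used here name no cell-type-specific promoter for the knockout, and the genotypes carry different strain names, so strain background and genotype cannot be told apart.

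Smooth muscle cells wrap arteries and arterioles and set their diameter. Calcium entering through voltage-gated channels or released from stores activates myosin light chain kinase, encoded by Mylk, which lets smooth muscle myosin (Myh11) pull on actin (Acta2), while nitric oxide and cyclic GMP relax the cell. Their contractile genes are driven by serum response factor (SRF) with its partner myocardin at a DNA motif known as the CArG box. In injured vessels the cells can lower these genes and make matrix instead, a shift known as phenotypic modulation. Trpm4 encodes a calcium-activated cation channel of smooth muscle and other cells that depolarizes the membrane.

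The promoters that carry a CArG box are shown first because that motif marks the contractile programme by which the cells are known. The motif, whose reverse complement is again a CArG box, was searched as an exact 10-base pattern: CC, then only A or T, then GG. The search covered the 250 bases before the start of each gene, in RefSeq promoters of build GRCm38.p6. Boxes that depart from this pattern were not counted. Of the 24 contractile genes listed outside the selection rule, 21 had a promoter in that table, and 3 of them (14.3%) held the motif, against 439 of all 27025 genes (1.62%). The 3 stretches are printed 5′ to 3′ in the direction of the gene, with the box in capitals:
Myl9: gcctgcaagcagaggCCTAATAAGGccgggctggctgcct
Myl6: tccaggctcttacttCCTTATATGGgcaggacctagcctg
Vcl: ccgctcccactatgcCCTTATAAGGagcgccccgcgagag
Myl9 encodes the regulatory light chain of smooth muscle myosin. Its stretch lies at chr2:156775288-156775327 on the plus strand, and its box begins 161 bases before the gene's start. Myl6 encodes the essential light chain, with its stretch at chr10:128493035-128493074 on the minus strand and its box 50 bases before the start. Vcl encodes vinculin, which ties actin to the membrane, and has its stretch at chr14:20929156-20929195 on the plus strand and its box 227 bases before the start. Of the 4 smooth muscle genes of the selection rule, 3 had a promoter in the table and 0 held the motif in this window. Myh11 of the rule, and Tagln, Actg2 and Nexn of the contractile list, had no promoter in the table and were not searched. A match is a description of the letters, and says nothing of binding in these cells.

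Several properties of the libraries bear on what follows. The selected cells numbered 170, 215, 53, 59, 31 and 16 in the order of the libraries given above, with median depths of 5326 to 7804 UMIs per cell and median mitochondrial shares of 4.83% to 6.68%. Over all filtered cells the median depth was 2182.5 UMIs in the KO ligation 72 h library, 8559 in the WT ligation 72 h library and 3248 to 4589 in the others. The KO ligation 72 h library gave only 16 smooth muscle cells with 98392 UMIs in all, so its values are shown but enter no comparison, which needed at least 20 cells on each side. In the WT ligation 72 h library 6 of the 31 cells, each over 3 times the library's median depth, held 66.2% of the smooth muscle UMIs. In the KO ligation 24 h library 4 of the 59 cells carried 10 or more UMIs of monocyte, macrophage and neutrophil markers, against 2 of 170 WT sham, 0 of 215 KO sham and 3 of 53 WT ligation 24 h cells. Results that rest on either set are given with and without it. Pairs of libraries shared 3 to 14 deposited cell barcodes, and 0 of these were smooth muscle cells.

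The cells carried the markers of vascular smooth muscle. Myh11, Cnn1, Mylk, Lmod1 and Mustn1 together stood at 11165, 10082, 10098, 7166, 4439 and 10773 counts per 1000000 summed UMIs (CPM) of the selected cells, in the order of the libraries. The first 4 of these genes chose the cells and so describe them without testing the label, whereas Mustn1, a small nuclear protein of muscle, was not used. Acta2 and Tagln, which encode smooth muscle actin and the actin-binding protein transgelin and which the rule did not use, stood at 11585 to 18579 and 7913 to 14676 CPM over the 6 libraries. Acta2 had no UMI in 2 of 170 WT sham and 0 of 215 KO sham cells, at median depths of 6823 and 5552 UMIs. Beside that, leukocytes of the same 2 libraries, with median depths of 4506 and 4431 UMIs, had an Acta2 UMI in 12.3% and 13.9% of cells. Markers of each other class summed to less than these in every library, but not all were low or absent. The 8 pericyte markers summed to 3567 to 6555 CPM, led by Rgs5, a regulator of G-protein signalling that smooth muscle also expresses. In the WT ligation 72 h library they stood at 3567 CPM, beside 4439 CPM for the 5 smooth muscle markers. The 6 fibroblast markers summed to 681 to 2031 CPM and the 6 endothelial markers to 694 to 2215 CPM, nearly all of the latter from Fabp4, while the endothelial marker Kdr had 0 to 4 UMIs per library. Cdh5, Csf1r, Ptprc and Myh6 were kept low by the rule itself and say nothing of the label. Of the cardiomyocyte markers, Tnnt2 gave most of 73.3 to 205 CPM, and Ttn had 0 UMIs in every library. The 4 lymphocyte markers summed to at most 1 UMI per library. Mesothelial, Schwann cell and erythroid markers reached 14.2, 4.78 and 19.2 CPM at most. The 4 neutrophil markers summed to 347, 43.4, 388, 2609, 12.2 and 50.8 CPM, so that the KO ligation 24 h library stood above the rest. At the border of the rule, 27 cells with 2 Myh11 UMIs that met every other condition lay outside it, with Acta2 at 4804 and Tagln at 5326 CPM over their sum, and 16 cells with 3 Myh11 UMIs lay inside, with 2554 and 2318 CPM. The cells just outside thus had a higher CPM of both genes than those just inside.

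Smooth muscle cells made up a smaller share of the sorted cells after ligation, where leukocytes made up more of them. Leukocytes numbered 1995 of 5328 filtered cells in WT sham and 1528 of 5827 in KO sham, against 1995 of 3201 and 5311 of 6734 at 24 h after ligation and 3596 of 4406 and 2680 of 4518 at 72 h. The share of filtered cells was 3.19% (2.74 to 3.7%) in the WT sham library and 3.69% (3.22 to 4.21%) in the KO sham library. At 24 h after ligation it was 1.66% (1.24 to 2.16%) in WT and 0.876% (0.668 to 1.13%) in KO, and at 72 h 0.704% (0.479 to 0.997%) and 0.354% (0.203 to 0.574%). Every ligation library lay below both sham libraries, and their counting intervals did not overlap. The leukocyte gate needed at least 1 UMI of Ptprc, Csf1r or Csf3r and none of Cdh5, Pdgfra or Myh11. Among the filtered cells outside that gate, the shares were closer together. They were 5.1% and 5% in the WT and KO sham libraries, 4.39% and 4.15% at 24 h after ligation, and 3.83% in WT at 72 h, with overlapping counting intervals. The KO ligation 72 h library stood apart at 0.871% (0.498 to 1.41%), and it is also the shallowest library. It held 1838 cells outside the leukocyte gate, and 16, 33, 146 and 154 cells in the smooth muscle, pericyte, fibroblast and endothelial gates. In WT sham there were 3333 cells outside the leukocyte gate, and 170, 84, 341 and 1905 in those gates. Most of the KO ligation 72 h denominator thus met none of these gates, unlike that of WT sham. With every cell thinned to 1000 UMIs and at least 1 Myh11 UMI required, the shares of filtered cells were 2.93, 3.28, 1.22, 0.698, 0.431 and 0.421% in the order of the libraries, and the share outside the leukocytes was not computed at equal depth. Against pericytes, the other mural cells, the proportion was also lower after ligation, most clearly in KO. Smooth muscle cells were 66.9% (60.8 to 72.7%) and 71% (65.5 to 76%) of the smooth muscle cells and pericytes together in the sham libraries, 53.5% (43.2 to 63.6%) and 44% (35.5 to 52.9%) at 24 h, and 49.2% and 32.7% at 72 h. The WT intervals at sham and 24 h overlap and the KO intervals do not. Both sets of cells were defined by measured counts. Recovery during digestion and sorting can set all these shares, and its part was not tested.

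**Figure D1:**
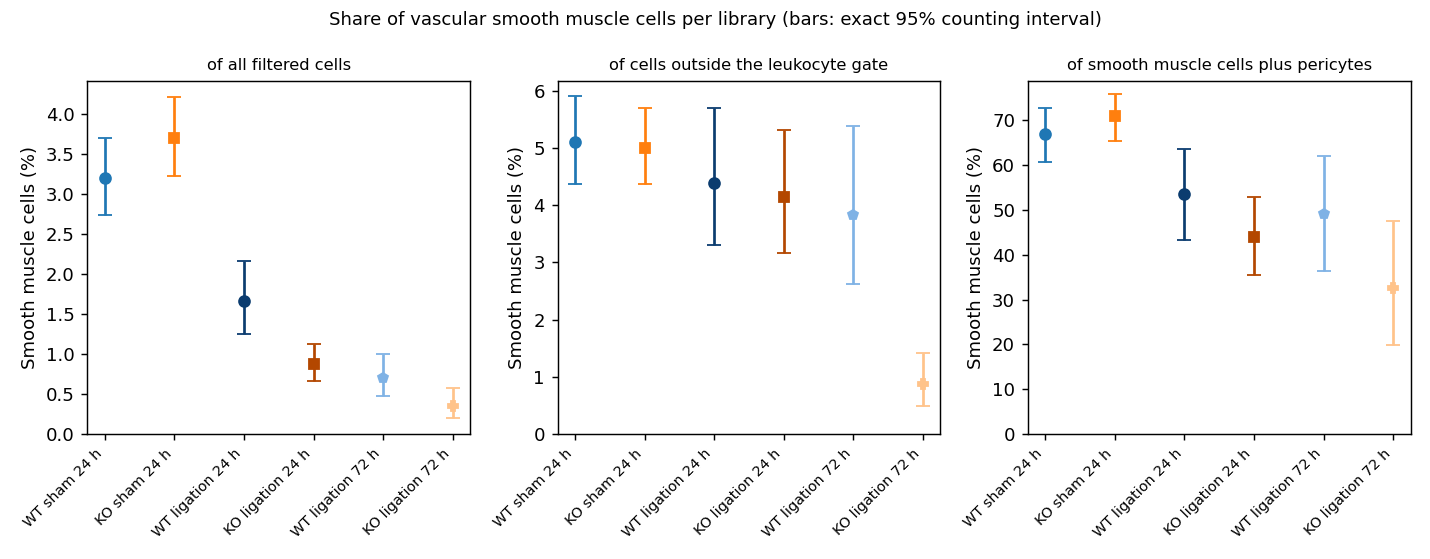
Share of vascular smooth muscle cells (%, vertical axis) in each of the 6 libraries (horizontal axis), over all filtered cells, over filtered cells outside the leukocytes, and over smooth muscle cells plus pericytes, with exact 95% counting intervals as bars. The share of all filtered cells goes from 3.19% and 3.69% in the sham libraries to 0.704% and 0.354% at 72 h. Outside the leukocyte gate only the KO ligation 72 h library lies far below the rest. It is the shallowest library, and most of its cells outside that gate met none of the other gates.

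The contractile genes were at similar levels in the sham and the 24 h ligation libraries of both genotypes. In the pairs of values that follow WT stands first and KO second. Acta2 was at 14801 and 18579 CPM in the sham libraries, 15372 and 15329 CPM 24 h after ligation, and 11585 and 18579 CPM at 72 h. Tagln was at 11801 and 14344 CPM in the sham libraries, 12857 and 10189.7 CPM 24 h after ligation, and 7913 and 14676 CPM at 72 h. In both genes the WT ligation 72 h library was the lowest of the 6, and without its 6 deepest cells it stood at 16202 and 13388 CPM. Myl9 was at 4492 and 5386 CPM in the sham libraries, 3775 and 4342 CPM 24 h after ligation, and 3109.6 and 6515 CPM at 72 h. Tpm2, a tropomyosin that lies along the actin filament, was at 6807 and 7796 CPM in the sham libraries, 5639 and 5940.0 CPM 24 h after ligation, and 4107 and 7734 CPM at 72 h. Mustn1 was at 1828 and 2421 CPM in the sham libraries, 2555 and 1777 CPM 24 h after ligation, and 1208 and 2663 CPM at 72 h. The order of the libraries differed between these genes, and the low place of the WT ligation 72 h library was common to the 5. Within the cells of a library the spread was wide: Acta2 ranged from 0 to 419 UMIs per 10000 in the WT sham library, with a median of 129, and from 3.1 to 504, with a median of 152, in the KO sham library.

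Beside pericytes, smooth muscle cells had more Pln, Sorbs2, Ramp1 and Nrip2, and less Colec11, Steap4 and G0s2. Pericytes were chosen in the same libraries by Kcnj8, Abcc9 and Pdgfrb with at most 2 Myh11 UMIs. Both groups were chosen on measured counts, so what follows describes them and tests nothing. Pln encodes phospholamban, which restrains the calcium pump of the sarcoplasmic reticulum. In the smooth muscle cells it stood at 1009.8 and 842 CPM in the sham libraries, 548 and 478 CPM 24 h after ligation, and 425 and 833 CPM at 72 h. Pericytes had 0 Pln UMIs in the WT sham library and in both ligation 24 h libraries, so that the level in smooth muscle was at least 115-fold higher in the first, counted against a floor of 3 UMIs in the pericytes of that library. The KO sham pericytes had 59.5 CPM of Pln, and the same pericytes carried the cardiomyocyte genes Myl2 at 258 and Tnnt2 at 278 CPM, whose part in that Pln value was not tested. Sorbs2, an adaptor of the actin cytoskeleton, was at 901 against 23.4 CPM in smooth muscle cells and pericytes of the WT sham library and at 825 against 17 CPM in those of the KO sham library. Ramp1, the partner that turns the calcitonin receptor-like protein into a receptor for the vasodilator CGRP, was at 248 against 2.92 CPM and at 220.0 against 0 CPM. Nrip2, a nuclear receptor interacting protein, was at 488 against 38 CPM and 543 against 22.7 CPM. All genes named beside pericytes were chosen for the same direction in all 5 libraries with at least 20 cells of both kinds. Their agreement over these libraries therefore follows from the choice. Asb2, part of a ubiquitin ligase for filamins, had 0 UMIs in the pericytes of 4 of the 5 libraries, against 224 and 216 CPM in the sham libraries and 140.4 and 152 CPM 24 h after ligation in smooth muscle. Rcan2, which binds calcineurin, was at 446 against 35.1 CPM in WT sham, and Ppp1r12b, a targeting subunit of myosin phosphatase, at 476 against 67.3 CPM. Fbxl22, Map3k7cl, Hspb2 and Palld (palladin, an actin-bundling protein) were the other genes chosen as higher in smooth muscle, beside Mustn1. The genes higher in pericytes included Colec11, a collectin, at 95.6 against 1579 CPM, and Steap4, a metalloreductase, at 86.9 against 977 CPM, again with smooth muscle first, in WT sham. G0s2, an inhibitor of the lipase ATGL, was at 108 against 845 CPM. Plxdc2, Eps8, Cpm and Sema6d were also among the genes chosen as higher in pericytes. Ednrb, the endothelin B receptor, was at 11.2 against 222 CPM in WT sham and at 125 against 1113 CPM in WT ligation 24 h. In KO it was at 4.27 against 159 CPM in sham and at 73.5 against 783 CPM 24 h after ligation. Its level was thus higher 24 h after ligation in both mural cell types of both genotypes. Most Ednrb UMIs of the WT ligation 24 h smooth muscle cells lay in a single cell, as given below.

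**Figure D2:**
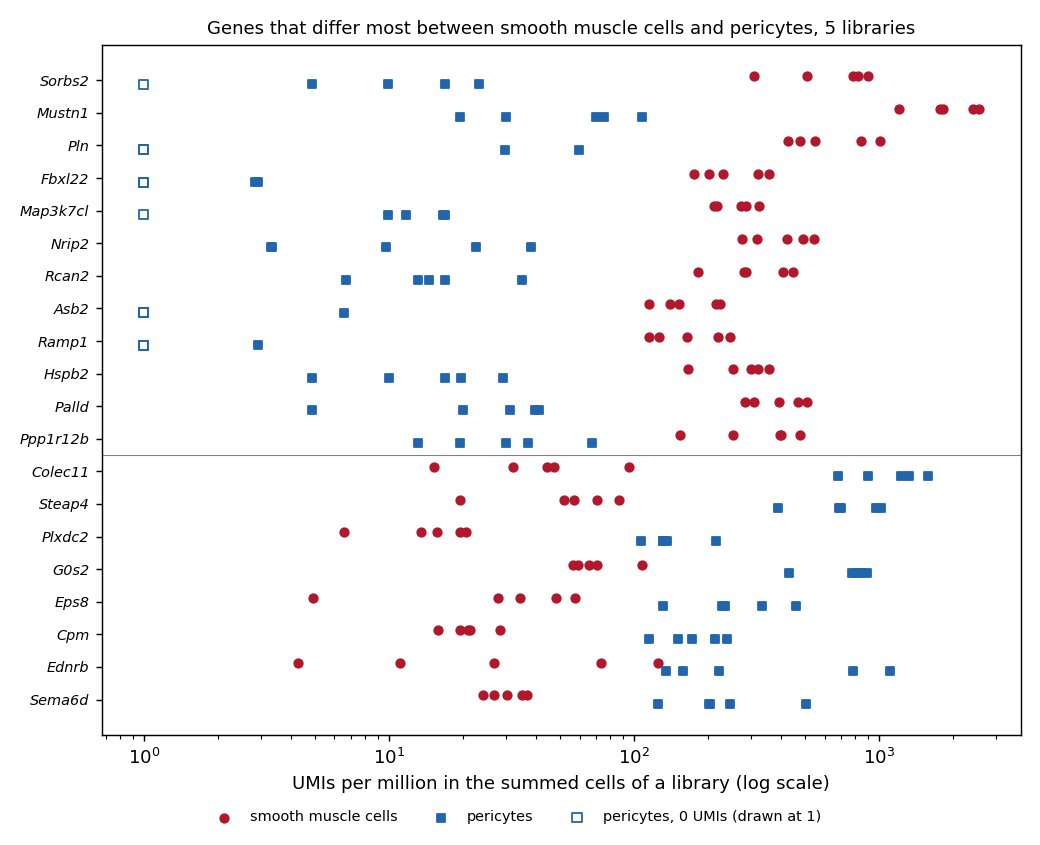
CPM (log scale, horizontal axis) in smooth muscle cells (circles) and pericytes (squares) for the 12 genes highest and the 8 genes lowest in smooth muscle cells beside pericytes, with 1 point per library in 5 libraries; open squares mark 0 UMIs and are drawn at 1. Pln stands at 425 to 1009.8 CPM in smooth muscle cells. The 20 genes were chosen for a large difference in the same direction in all 5 libraries. The gap between the 2 groups therefore follows largely from that choice.

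Values of the WT ligation 72 h library in the next 3 groups of genes include its 6 deepest cells. Among ion channels and calcium handling genes, the calcium pump gene Atp2a2 was at 952 and 822 CPM in the sham libraries, 774 and 722 CPM 24 h after ligation, and 425 and 701 CPM at 72 h. Ano1, a calcium-activated chloride channel that depolarizes the cell, was at 172 and 137 CPM in the sham libraries, 145 and 126 CPM 24 h after ligation, and 66 and 81.3 CPM at 72 h. Cacna1c, the pore of the L-type calcium channel, was at 92.5 and 66.2 CPM in the sham libraries, 52.6 and 91.9 CPM 24 h after ligation, and 34.2 and 20.3 CPM at 72 h. Ryr3 had no UMI in any library, and Trpv4 and Kcnq5 had 1 and 2 UMIs over the 6 libraries. Kcnj8 and Abcc9 encode the ATP-sensitive potassium channel that is characteristic of pericytes. Kcnj8 was at 43 and 24.2 CPM in the sham libraries, 17.5 and 99.7 CPM 24 h after ligation, and 29.3 and 10.2 CPM at 72 h in smooth muscle, against 2618 and 2598 CPM in sham pericytes, and 1 cell held 57.9% of its UMIs in the KO ligation 24 h library. Cells with 2 or more UMIs over both genes numbered 19, 15, 4, 5, 4 and 0 of the smooth muscle cells in the order of the libraries.

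Of the vasoactive receptors and their signalling, the subunits of the nitric oxide receptor guanylate cyclase were detected in every library. Gucy1a1 was at 1356 and 1149 CPM in the sham libraries, 1156 and 874 CPM 24 h after ligation, and 499 and 864 CPM at 72 h, and Gucy1b1 at 786 and 760.4 CPM in the sham libraries, 678 and 625 CPM 24 h after ligation, and 349.6 and 681 CPM at 72 h. Ednra, the endothelin A receptor, which constricts, was at 152 and 143 CPM in the sham libraries, 129 and 176 CPM 24 h after ligation, and 97.8 and 152 CPM at 72 h. Rgs5 was at 4758 and 4361 CPM in the sham libraries, 3812 and 3491 CPM 24 h after ligation, and 2462 and 5397 CPM at 72 h, and Rgs4, of the same family, at 499.7 and 533 CPM in the sham libraries, 449.6 and 569.6 CPM 24 h after ligation, and 291 and 508 CPM at 72 h. The angiotensin receptor gene Agtr1a and the adrenergic receptor genes Adra1a, Adra1b and Adra1d each had at most 1 UMI in any library, where a count of 0 allowed up to 2.39 CPM in WT sham and 30.5 CPM in KO ligation 72 h.

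Among transcriptional regulators, Myocd, which encodes myocardin, was at 106 and 76.2 CPM in the sham libraries, 81.1 and 73.5 CPM 24 h after ligation, and 31.8 and 40.7 CPM at 72 h, and in pericytes at 2.83 CPM in KO sham and 0 in the other 5 libraries. Mef2c, a transcription factor of the muscle lineages, was at 952 and 849 CPM in the sham libraries, 673 and 449 CPM 24 h after ligation, and 403 and 1057 CPM at 72 h. Notch3, the Notch receptor of mural cells, was at 732 and 674 CPM in the sham libraries, 588 and 777 CPM 24 h after ligation, and 320.2 and 549 CPM at 72 h, and its target Hey2 at 98.8 and 88.3 CPM in the sham libraries, 107 and 89.2 CPM 24 h after ligation, and 17.1 and 102 CPM at 72 h. Klf4 and Klf5, which are linked to the loss of contractile genes in injured vessels, had at most 15 and 1 UMIs in any library.

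The smooth muscle cells of the sham libraries ran from cells rich in Rgs5 to cells rich in many of the contractile genes. Rgs5 ranged from 0 to 215 UMIs per 10000 in WT sham, with a median of 43.7, and from 0 to 218 in KO sham, with a median of 40.1. It had no UMI in 20 of 170 and 29 of 215 cells. Across the 170 WT sham and 215 KO sham cells, the rank correlation with Rgs5 was -0.60 and -0.70 for Tagln. It was -0.56 and -0.62 for Acta2, -0.58 and -0.66 for Csrp1, an actin-associated LIM protein, and -0.59 and -0.57 for Actg2, the gamma form of smooth muscle actin. All of these were lower in cells with more Rgs5. Other genes ran with Rgs5. The correlation was 0.58 and 0.57 for the pericyte marker Higd1b, 0.49 and 0.42 for Notch3, 0.33 and 0.51 for Gucy1a1, and 0.41 and 0.40 for Aspn, a small matrix proteoglycan. Contractile genes did not all follow the gradient: Cald1, which encodes caldesmon, gave 0.05 and 0.10, and Des, the filament protein desmin, -0.03 and 0.01. Among the 53 and 59 cells at 24 h after ligation, Notch3 gave 0.63 and 0.63. The contractile genes named above gave -0.37 and -0.40 (Tagln), -0.27 and -0.43 (Acta2), -0.24 and -0.34 (Csrp1) and -0.57 and -0.35 (Actg2). Other contractile genes were close to no correlation there. Myl9 gave -0.44 and -0.58 at sham but -0.08 and -0.12 after ligation. Mustn1 gave -0.37 and -0.38 at sham but -0.07 and -0.06 after ligation. The cells of each value share 1 library, the values are shares of each cell's own total, and depth differs between cells, so these are descriptions. Pln was patchy as well, with no UMI in 37 of 170 WT sham, 46 of 215 KO sham, 19 of 53 WT ligation 24 h and 23 of 59 KO ligation 24 h cells, whose median depths were 6823, 5552, 7804 and 5326 UMIs. Leukocytes had a Pln UMI in 0.916% of cells at most in these 4 libraries, at median depths of 3189 to 4506 UMIs.

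The comparison of ligation at 24 h with sham asks how smooth muscle responds to a fresh infarct, and it was made in WT and in KO, which share no library. Smooth muscle cells had more RNA of Ccn2, Mt2 and Egr1 after ligation in both genotypes, less of the clock genes Dbp and Nr1d1, and contractile genes that stayed within 2-fold of sham, apart from Actg2 in KO. A gene was measured where the pair of libraries held at least 50 of its UMIs, and called where the ratio was at least 2-fold with a counting interval off 1; this is a rule of size and not a test. Of 24 contractile genes, 0 were called higher and 0 lower in WT, where 2.7% and 2.76% of the 4744 measured genes were called higher and lower. In KO 0 were called higher and 1 lower (Actg2, log2 ratio -1.15 (-1.79 to -0.55)), where 2.41% and 2.11% of 4642 genes were called. The median log2 ratio of the contractile genes was 0.01 in WT and -0.27 in KO, beside -0.01 and 0.01 over all measured genes. Actg2 had 26 UMIs in the KO ligation 24 h library, 34.6% of them from 1 cell. With 0 called in WT and 1 in KO, the calls are too few to set apart from the background share. Of the 24 genes, 12 had a log2 ratio above 0 in WT and 4 in KO.

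Ccn2, a matricellular protein made by stretched and injured cells, was at 242 and 184 CPM in the sham libraries, 1362 and 383 CPM 24 h after ligation, and 907 and 264 CPM at 72 h. The log2 ratio to sham was 2.49 (2.29 to 2.69) in WT and 1.06 (0.75 to 1.35) in KO. Both ligation 24 h libraries lay above both sham libraries, and 1 cell held 37.2% of the Ccn2 UMIs of the WT ligation 24 h library. Spry4, which damps receptor tyrosine kinase signalling, was at 52.6 and 42 CPM in the sham libraries and 107 and 86.6 CPM 24 h after ligation, with log2 ratios of 1.03 (0.47 to 1.59) and 1.04 (0.38 to 1.68). The unnamed gene model Gm12840 was at 39.1 and 46.3 CPM in the sham libraries and 483 and 108 CPM 24 h after ligation, with 3.63 (3.17 to 4.10) and 1.22 (0.62 to 1.80). These 3 genes were the ones that met the rule for named genes on the higher side in both genotypes. Without the cells over 3 times the median depth Spry4 stood at 0.98 (0.32 to 1.63) in KO and was no longer called there. Ccn1, a relative of Ccn2, and Ankrd1, a stretch-responsive muscle gene, were chosen after their values were seen. Ccn1 was at 121 and 104 CPM in the sham libraries and 375 and 110.2 CPM 24 h after ligation. Ankrd1 was at 0.797 and 2.14 CPM in the sham libraries and 156 and 5.25 CPM 24 h after ligation. Both were highest in the WT ligation 24 h library, where 3 of 53 cells carried Ankrd1 and 1 cell held 71.8% of its UMIs.

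The hypoxia, glycolysis and metallothionein list showed the metal-binding Mt1 and Mt2 higher in both genotypes. Mt1 was at 544 and 481 CPM in the sham libraries, 1498 and 995 CPM 24 h after ligation, and 779.8 and 274 CPM at 72 h, with log2 ratios of 1.46 (1.31 to 1.62) and 1.05 (0.86 to 1.23). Mt2 gave 1.66 (1.32 to 2.01) and 1.76 (1.37 to 2.14), and Pgk1, a glycolytic enzyme, 1.01 (0.63 to 1.37) and 1.06 (0.66 to 1.44). Without the cells with leukocyte markers Mt1 stood at 0.95 (0.75 to 1.15) and Pgk1 at 0.53 (0.05 to 0.99) in KO, and Pgk1 at 0.94 (0.55 to 1.32) in WT, below the 2-fold limit. Of the 10 measured genes in WT 5 were called higher and 0 lower (median 0.91), and of 11 in KO 3 higher and 1 lower (median 0.43). The gene called lower was Ankrd37, at -1.72 (-3.22 to -0.53). Immediate early genes are switched on within minutes of a stimulus. Of 15 measured immediate early and heat shock genes, 6 were called higher and 0 lower in WT, with a median of 0.83, and of 15 in KO, 5 higher and 2 lower (Hspa1a and Hspa1b), with a median of 0.01. Egr1, an early transcription factor, was at 64.6 and 25.6 CPM in the sham libraries and 151 and 97.1 CPM 24 h after ligation, with 1.23 (0.74 to 1.71) and 1.92 (1.22 to 2.63). Of 11 measured inflammatory genes in WT 4 were called higher, among them the transcription factors Cebpb at 2.67 (2.20 to 3.15) and Cebpd at 1.60 (1.21 to 1.98) and the oncostatin M receptor Osmr at 1.74 (1.16 to 2.34), and 1 lower, the chemokine Cxcl12 at -1.79 (-2.53 to -1.12). In KO 6 of 11 were called higher and 0 lower. That count in KO rested on cells that also carried leukocyte markers: without the 4 cells with 10 or more such UMIs, 0 of 8 measured genes were called higher and 0 lower, where 1.13% and 1.57% of all 4522 genes were called. In that library 1 cell held 93.1% of the Cxcl1 UMIs and 65.9% of the Ccl2 UMIs, both of which encode chemokines. Without those cells Cebpb stood at 0.87 (0.31 to 1.41) and Nfkbia, the inhibitor of NF-kappa B, at 0.45 (-0.10 to 0.96) in KO. The same step left 1 immediate early gene called higher (Egr1, 1.75 (0.98 to 2.50)), 3 lower, and 1 gene of the hypoxia list higher (Mt2, 1.51 (1.08 to 1.93)). In WT, leaving out the cells with leukocyte markers gave 5 of 10 inflammatory genes and 7 of 14 immediate early and heat shock genes called higher. The counts over all genes called higher and lower in WT then stayed within 1.5 times of the 128 and 131 called with all cells.

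Most of the measured clock genes were lower after ligation. Dbp, a clock output transcription factor, was at 197 and 44.9 CPM in the sham libraries, 19.7 and 5.25 CPM 24 h after ligation, and 14.7 and 71.1 CPM at 72 h, with log2 ratios of -3.32 (-4.46 to -2.37) and -3.10 (-6.17 to -1.18). Nr1d1, which encodes the clock repressor REV-ERB alpha, gave -1.11 (-1.77 to -0.50) and -1.95 (-3.61 to -0.66), and Nr1d2 -1.08 (-1.84 to -0.38) and -2.29 (-4.61 to -0.66). Of 8 measured clock genes 1 was called higher (Per1) and 5 lower in WT, and of 4 in KO 0 higher and 3 lower. Dbp moved in the same way in the endothelial cells of the 4 libraries at 24 h, with 345, 56.9, 22.3 and 9.9 CPM in the order of the libraries. These genes follow the time of day, the hour of collection is not given in the sources used here, and hour and group cannot be told apart. Tcap, a titin-binding protein of striated muscle, was at 214 and 92.6 CPM in the sham libraries and 30.7 and 23.6 CPM 24 h after ligation, with -2.80 (-3.69 to -2.03) in WT and -1.97 in KO, where the interval also lay below 0. Gpc6, a cell surface heparan sulfate proteoglycan, was at 169.8 and 153 CPM in the sham libraries and 83.3 and 73.5 CPM 24 h after ligation, with -1.03 (-1.56 to -0.52) and -1.06 (-1.68 to -0.49). Phactr2, which binds actin and protein phosphatase, gave -1.01 (-1.66 to -0.42) and -1.02 (-1.79 to -0.32), Hsd17b11 -1.04 (-2.25 to -0.01) and -1.35 (-3.04 to -0.03), and Zfp938 -1.37 (-2.65 to -0.30) and -1.34 (-2.85 to -0.13). Calls near the 2-fold limit were fragile: without the cells over 3 times the median depth Nr1d2 was at -0.99 (-1.75 to -0.30) in WT, Gpc6 at -0.98 (-1.53 to -0.47) in WT and -0.94 (-1.57 to -0.36) in KO, and Phactr2 at -0.97 (-1.75 to -0.27) in KO. Hsd17b11, at -1.30 (-2.99 to 0.03) in KO, had an interval that reached 0 there, while Tcap and Zfp938 were called in both genotypes with and without either set of cells.

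Over all genes, 4379 were measured in both genotypes. Of these 28 were called higher in both (25.9% of the 108 in WT and 30.8% of the 91 in KO) and 14 lower in both (12.8% of 109 and 15.2% of 92), while 9 were called in opposite directions. Most calls were thus made in 1 genotype, which does not show that the genotypes differ. The receptor, regulator, channel and matrix lists had few calls. Of 10 measured receptor and cyclic nucleotide genes 1 was called higher in WT: Ednrb, at 11.2 and 4.27 CPM in the sham libraries, 125 and 73.5 CPM 24 h after ligation, and 26.9 and 0 CPM at 72 h, with a log2 ratio of 3.49 (2.62 to 4.44) and 66.7% of the WT ligation 24 h UMIs in 1 cell. Of 9 in KO 0 were called, and of the regulators 0 of 15 in WT and 0 of 14 in KO, in either direction. Of 18 measured channel and calcium genes in WT 1 was called lower, Kcnj8 at -1.29 (-2.58 to -0.21), and of 19 in KO 2 higher, Kcnj8 at 2.04 (1.34 to 2.75) and Abcc9 at 1.26 (0.62 to 1.88). Pln was lower without reaching the 2-fold limit, at -0.88 (-1.08 to -0.68) and -0.82 (-1.05 to -0.59). Of 17 elastic fibre and basement membrane genes in WT 1 was called higher, Col18a1 at 1.52 (1.18 to 1.85), and of 15 in KO 1, Eln (elastin) at 2.29 (1.84 to 2.74), with 64.3% of the KO ligation 24 h Eln UMIs in 1 cell. In neither genotype was a gene of that list called lower. Of 10 and 9 measured interferon-stimulated genes 1 was called higher in WT, Isg15 at 1.55 (0.95 to 2.16), and 0 in KO, and of the proliferation list only Pcna was measured, at 0.43 (-0.27 to 1.11) and -0.28 (-1.13 to 0.49). In the list of phenotypic modulation, Timp1, an inhibitor of matrix proteases, was at 26.3 and 24.9 CPM in the sham libraries and 173 and 68.2 CPM 24 h after ligation, with 2.72 (2.12 to 3.35) and 1.45 (0.66 to 2.23), and Thbs1, thrombospondin 1, gave 3.27 (2.85 to 3.71) and 1.25 (0.87 to 1.62). Of the matrix genes of that list, Dcn and Lum were called lower in both genotypes. Dcn (decorin) was at 246 and 355 CPM in the sham libraries and 6.58 and 13.1 CPM 24 h after ligation, with -5.23 (-7.51 to -3.67) and -4.76 (-6.39 to -3.53), and Lum (lumican) had 0 UMIs in WT ligation 24 h. Fn1 (fibronectin) gave -0.33 (-1.05 to 0.34) in WT and 2.02 (1.57 to 2.47) in KO, where it was called higher, and Col3a1 -3.15 (-3.88 to -2.51) and 0.15 (-0.27 to 0.55), called lower in WT and not called in KO. Of 16 measured genes 3 were called higher and 5 lower in WT, and of 15 in KO 5 and 2. Without the cells with leukocyte markers Thbs1 stood at 0.03 (-0.53 to 0.57) in KO and Fn1 at -0.04 (-0.86 to 0.71), and 1 gene of the list was then called higher and 2 lower. The 6 fibroblast markers, which include Dcn, Lum and Col1a1, summed to 1422 and 1737 CPM in the sham libraries and 765 and 822 CPM at 24 h. The lower sum is thus in part that of Dcn itself and is not separate from it. Of the sham Dcn UMIs, 35.3% and 52.7% came from 1 cell each. The part of cells with fibroblast markers in the result was not tested.

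**Figure D3:**
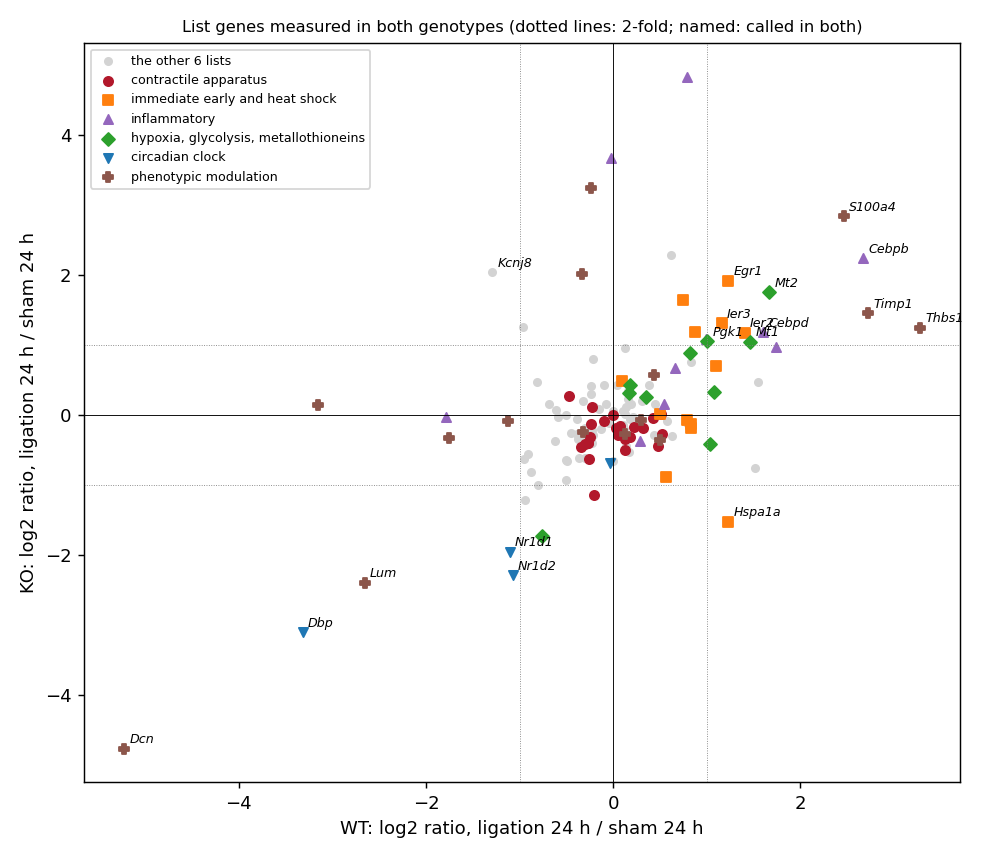
Log2 ratio of ligation 24 h to sham 24 h in WT (horizontal axis) and KO (vertical axis) for the list genes measured in both genotypes, coloured by list; dotted lines mark 2-fold and names mark genes called in both. The contractile genes lie within 2-fold on both axes apart from Actg2 in KO, with a median of 0.01 in WT and -0.27 in KO. Mt1, Mt2, Cebpb and Egr1 lie in the upper right, Dcn, Dbp and Nr1d2 in the lower left, and Kcnj8 and Hspa1a were called in opposite directions.

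The WT ligation 72 h cells fell into 2 sets by depth, and the deep set carried most of the library's smooth muscle UMIs. The 6 deepest cells held 21715 to 98255 UMIs and the other 25 held 1702 to 10812. Fibroblasts of the same library had a median of 24635 UMIs. In the 6 deep cells Myh11 stood at 1.27 to 8.29 UMIs per 10000, and in the others at 18.8 to 113, but the rule asks for 3 Myh11 UMIs at any depth and so admits deep cells at a lower level, which sets part of this gap. Among the smooth muscle cells of this library, the collagen UMIs lay in the deep cells: Col1a1 had 566 UMIs in them and 0 in the 25 others, and Col3a1 357 and 0. Tnc (tenascin C) had 215 and 0, Cthrc1 120 and 0, Timp1 799 and 1, and Postn (periostin) 155 and 5 UMIs. Pdgfra, the fibroblast receptor, had 6 and 0. Actin was present in both sets, with Acta2 at 33 to 246 per 10000 in the deep cells and 70.5 to 232 in the others. The deepest cell had 98255 UMIs over 7812 genes, with 32 of Myh11, 302 of Col1a1 and 479 of Timp1. It had 59 UMIs of Cnn1 and 0 of Mylk, Lmod1, Rgs5 and Pln. The rule admitted it on its counts, and whether it is a smooth muscle cell was not tested. Cells with 3 or more UMIs over the cycling genes Mki67, Top2a, Birc5, Ube2c and Cdc20 numbered 5 of 31 in this library and 1 of 170 in WT sham, with none in the other 4. With the highest doublet scores removed, 29 of the 31 cells remained. The collagen was uneven among the 6: the 2 deepest cells held 302 and 172 of the Col1a1 UMIs and 479 and 295 of the Timp1 UMIs, while the least deep had 0 of Col1a1, 3 of Col3a1, 18 of Myh11 and 55 of Mustn1. Cells with 10 or more UMIs of Col1a1 and Col3a1 together numbered 11 of 170 in WT sham, 7 of 215 in KO sham, 2 of 53 and 2 of 59 at 24 h after ligation, and 5 of 31 here, so such cells were not limited to 72 h. Depths differ between these cells and libraries. Since the deep cells carried most of the UMIs, results at 72 h are given with and without all 6.

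**Figure D4:**
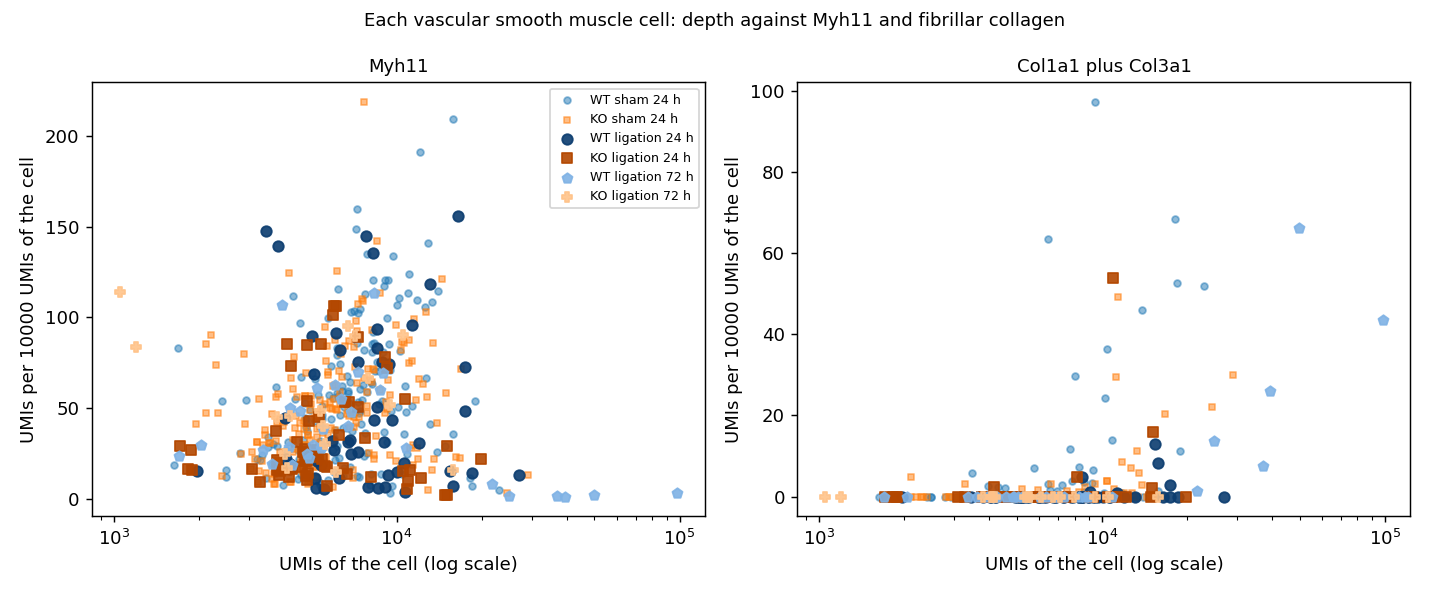
Each smooth muscle cell by its depth (UMIs, log scale, horizontal axis) and its UMIs per 10000 of Myh11 (left) and of Col1a1 plus Col3a1 (right), coloured by library. The 6 WT ligation 72 h cells from 21715 UMIs up lie low in Myh11, at most 8.29 per 10000, and hold all the Col1a1 and Col3a1 UMIs of that library's smooth muscle cells.

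From 24 h to 72 h after ligation in WT, all 31 cells together gave lower contractile genes and higher matrix genes, and the first of these was nearly gone without the deep cells. Of the 24 contractile genes 0 were called higher and 8 lower (Flna, Itga8, Mustn1, Ppp1r12a, Ppp1r12b, Smtn, Synm and Synpo2), with a median log2 ratio of -0.72 beside -0.05 over all genes, where 9.74% and 13.3% of 2679 genes were called higher and lower. Without the cells over 3 times their library's median depth, which also leaves out 1 cell of the WT ligation 24 h library, 0 were called higher and 1 lower (Actg2, -1.54 (-2.80 to -0.48)), the median was -0.10, and 1.8% and 9.02% of 1830 genes were called. Acta2 was then at 16202 CPM at 72 h, with a log2 ratio of 0.06 (-0.01 to 0.13), and Tagln at 13388 CPM, with 0.03 (-0.04 to 0.11). The matrix and modulation genes rested on the deep cells. Over all cells 10 of 15 measured modulation genes were called higher and 1 lower, with a median of 2.82. Without them 0 of 7 were called higher and 4 lower, with a median of -1.07; Col1a1, Col3a1, Tnc and Dcn then had no UMI at 72 h. Of the elastic fibre and basement membrane list 8 of 20 were called higher and 3 lower over all cells, and 0 of 10 and 3 without them. The stress and inflammatory genes were lower at 72 h than at 24 h with and without the deep cells. Of the immediate early and heat shock genes 9 of 14 were called lower over all cells and 10 of 14 without the deep ones, and of the inflammatory genes 5 of 9 and 7 of 7, with none called higher in either list. Egr1 gave -4.95 (-8.03 to -3.04) over all cells and -4.48 (-9.80 to -1.95) without them, and Cebpb -2.31 (-3.02 to -1.66) and -2.95 (-4.60 to -1.69). Ccn2 gave -0.59 (-0.78 to -0.40) over all cells and -2.83 (-3.52 to -2.21) without the deep ones, and Mt1 -0.94 (-1.14 to -0.75) and -3.06 (-3.69 to -2.48). In both genes the level of the 25 other cells was below that of the WT sham cells, at 159 and 181 CPM. Of the hypoxia list 1 of 8 was called higher over all cells (Eno1, enolase 1), and 4 of 8 lower without them. Pln was at 1215 CPM in the 25 other cells at 72 h, with a log2 ratio to 24 h of 1.06 (0.77 to 1.35), against -0.37 (-0.65 to -0.08) over all cells. Slc8a1, the sodium-calcium exchanger, gave 1.01 (0.45 to 1.55) and Nrip2 1.22 (0.85 to 1.59) in the 25 other cells. Over all cells 0 of 10 channel and calcium genes were called higher and 2 lower, of the receptors 0 of 10 higher and 4 lower, and of the regulators 0 of 14 higher and 4 lower. Without the deep cells these counts became 2 and 0, 0 and 1 (Ednrb), and 1 and 1 (Hey2). Of the interferon-stimulated genes 4 of 8 were called higher over all cells. Ifi27l2a, an interferon-induced gene, was higher in both sets, at 4.06 (3.44 to 4.76) and at 3.30 (2.59 to 4.07). In the proliferation list Birc5 and Ube2c were at 129.6 and 154 CPM at 72 h and had 0 UMIs at 24 h, and 1 cell held 96.8% of the Ube2c UMIs. Genes named by rank for this comparison were Ppic (cyclophilin C) at 5.73 (3.83 to 8.79), Selenoh at 3.94 (2.97 to 5.10), Bok at 3.91 (2.47 to 5.84), Loxl2 (a lysyl oxidase that cross-links matrix) at 3.57 (2.59 to 4.74) and Meg3 at 3.33 (2.20 to 4.70) on the higher side. On the lower side were Eln at -5.46 (-10.79 to -2.91), Col18a1 at -3.94 (-5.10 to -2.98), Olfr1033 at -3.75 (-5.67 to -2.32), Gm12840 at -3.62 (-4.46 to -2.89) and Mir22hg at -3.40 (-5.33 to -1.95). The 5 higher genes were left with too few UMIs to be measured without the deep cells, while Col18a1 stood at -3.63 (-5.93 to -2.04) and Gm12840 at -4.45 (-6.74 to -2.88) in the 25 other cells.

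The comparison of genotypes asks what loss of Trpm4 does to smooth muscle. Trpm4 itself was rare: 36 and 19 UMIs in the WT and KO sham cells, 6 and 3 at 24 h after ligation, and 7 and 1 at 72 h. Its level was 28.7 and 13.5 CPM in the sham libraries, 13.2 and 7.87 CPM 24 h after ligation, and 17.1 and 10.2 CPM at 72 h. The KO to WT ratio was 0.471 (0.255 to 0.844) at sham, 0.598 (0.0968 to 2.8) at 24 h and 0.594 (0.0132 to 4.62) at 72 h, lower than 1 in each pair, with an interval off 1 at sham. Over all barcodes Trpm4 stood at 8.79 and 6.2 CPM at sham, 5.52 and 3.46 at 24 h and 4.29 and 2.57 at 72 h. The deleted part of the allele is not given in the sources used here, and UMIs of a 3′ assay can come from a transcript that lacks other exons, so these values check nothing about the labels.

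In the sham libraries the contractile genes did not differ by 2-fold between genotypes, while 6 clock genes were lower and 3 heat shock genes of the list higher in KO. Of 24 contractile genes 0 were called higher and 0 lower, with a median of -0.01 beside -0.06 over all genes, where 0.46% and 1.1% of 6084 genes were called higher and lower. Acta2 gave a log2 ratio of 0.33 (0.30 to 0.36), Tagln 0.28 (0.25 to 0.31) and Myl9 0.26 (0.21 to 0.31). Of 21 measured channel and calcium genes 1 was called lower, Trpm4 itself at -1.08 (-1.97 to -0.24), and at -0.98 (-1.87 to -0.13) without the cells over 3 times the median depth. Ano1 gave -0.33 (-0.61 to -0.04), Cacna1c -0.48 (-0.89 to -0.08) and Pln -0.26 (-0.38 to -0.15), and Abcc9 and Kcnj8 -0.56 (-1.08 to -0.04) and -0.83 (-1.49 to -0.18). Of 9 receptor and 18 regulator genes 0 were called. Hspb1, a small heat shock protein that protects actin filaments, was at 1011 and 2237 CPM in the sham libraries, 1798 and 1977 CPM 24 h after ligation, and 582 and 1159 CPM at 72 h. It gave 1.15 (1.05 to 1.24) at sham and 0.14 (-0.01 to 0.28) at 24 h after ligation. The inducible chaperone genes Hspa1a and Hspa1b gave 1.17 (0.76 to 1.60) and 1.46 (0.79 to 2.17) at sham, and Hsph1, a larger relative, 1.70 (1.16 to 2.28). Hspa1a and Hspa1b are near-identical copies that share reads, so their separate values are uncertain. Of 17 genes of that list 3 were called higher and 1 lower (Egr1, -1.33 (-1.94 to -0.75)). Of 8 measured clock genes 6 were called lower in KO and 0 higher. Dbp gave -2.13 (-2.56 to -1.73), Hlf, of the same family, -2.03 (-2.76 to -1.35), Tef -1.28 (-1.92 to -0.68), and Per3, a period gene, -2.44 (-3.43 to -1.56). Dbp was lower in KO in endothelial cells too, as given above, and the hour of collection cannot be told apart from genotype. The other genes named by rank were Snhg9, a small nucleolar RNA host gene, at 2.52 (1.54 to 3.64), and Nmt1, an N-myristoyltransferase, at 1.31 (0.96 to 1.67) on the higher side, and Col14a1 at -1.56 (-2.25 to -0.92), Prkaa2, a catalytic subunit of the energy sensor AMPK, at -1.39 (-2.17 to -0.67) and March7 at -1.27 (-1.91 to -0.65) on the lower. Nmt1 was at 72.5 and 180.1 CPM in the sham libraries and 171 and 142 CPM 24 h after ligation, so that the WT sham library was the low one of the 4. Snhg9 was at 7.97 and 45.6 CPM in the sham libraries and 79 and 63 CPM 24 h after ligation, again with WT sham alone low. Of 17 modulation genes 2 were called higher and 2 lower, of 20 elastic fibre and basement membrane genes 1 and 0, of 12 inflammatory genes 0 and 1, of 11 hypoxia genes 0 and 0, and of 11 interferon-stimulated genes 0 and 1. Thbs1 was among the higher, at 1.18 (0.74 to 1.63), with 62.5% of the KO sham UMIs in 1 cell, and Cxcl2 was the inflammatory gene lower, at -4.27 (-5.35 to -3.35), with 78.5% of the WT sham UMIs in 1 cell.

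At 24 h after ligation Ccn2 and the immediate early genes Btg2, Jun and Nr4a1 were lower in KO, and the contractile genes stayed within 2-fold apart from Actg2. Of 24 contractile genes 0 were called higher and 1 lower (Actg2, -1.21 (-1.92 to -0.55)), with a median of -0.33 beside -0.01, where 2.3% and 3.6% of 2613 genes were called higher and lower. Ccn2 gave -1.83 (-2.10 to -1.57), Gm12840 -2.16 (-2.68 to -1.68) and Col18a1 -2.15 (-2.78 to -1.57), all lower in KO. In the WT ligation 24 h library 1 cell held 30.5% of the Gm12840 UMIs. Without the cells over 3 times the median depth, Ccn2 gave -1.51 (-1.79 to -1.24), so that it stayed lower in KO. Of 14 immediate early and heat shock genes 4 were called lower and 0 higher, with a median of -0.36. The 4 were Btg2, Jun, Nr4a1 and the heat shock gene Hspa1a. Of the 14, 3 had a log2 ratio above 0, among them Fos at 0.18 (-0.18 to 0.54) and Ier2 at 0.04 (-0.58 to 0.66). Jun gave -1.73 (-2.45 to -1.05) and Nr4a1, an orphan nuclear receptor, -1.93 (-2.88 to -1.08). Without the cells with leukocyte markers 7 were called lower and 0 higher, with a median of -1.03. Over all genes 31 were then called higher, against 60 with all cells. The count called lower over all genes stayed within 1.5 times of the 94 called with all cells. Of 12 inflammatory genes 3 were called higher in KO (Ccl2, Cxcl1 and Cxcl12) and 1 lower, and of 11 modulation genes 3 and 1. Without the cells with leukocyte markers the inflammatory counts became 1 (Cxcl12) and 2, and the modulation counts 1 and 4. Eln was higher in KO, at 1.26 (0.75 to 1.78), with 64.3% of the UMIs of that library in 1 cell. Of 12 channel and calcium genes 1 was called higher, Abcc9 at 1.66 (0.74 to 2.66), and of the receptors (10 measured), regulators (14) and hypoxia genes (8) 0 were called. No gene met the naming rule in the same direction in both genotype comparisons. The ligation contrasts in WT and KO and the 2 genotype contrasts use the same 4 libraries, so their values are not independent of each other.

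**Figure D5:**
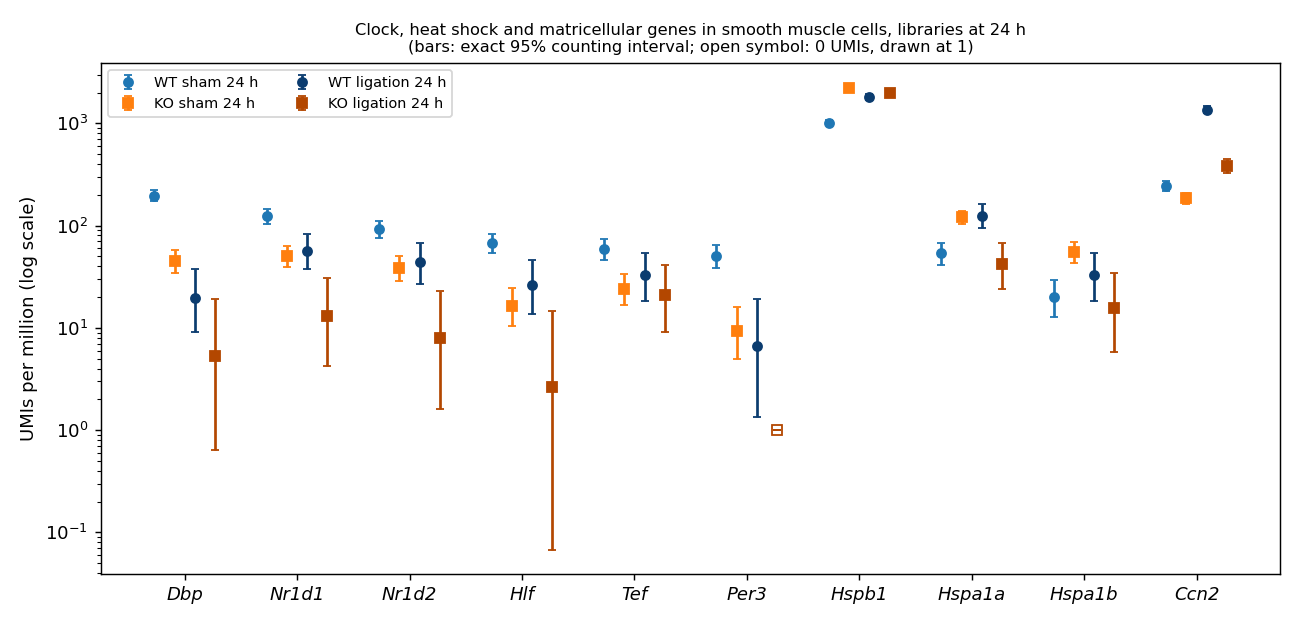
CPM (log scale, vertical axis) of 6 clock genes, 3 heat shock genes and Ccn2 in smooth muscle cells of the 4 libraries at 24 h, with exact 95% counting intervals as bars; an open symbol marks 0 UMIs and is drawn at 1. Dbp stands at 197 CPM in WT sham and 5.25 to 44.9 CPM in the other 3, and Hspb1 is lowest in WT sham at 1011 CPM.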

How the data were processed

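RNA of live non-cardiomyocytes was measured in 6 pooled 10x Genomics 3′ libraries, 1 per group. The values are raw UMI counts per gene and cell, deposited as 1 filtered matrix per library. Per the submitters' processing notes, reads were processed with Cell Ranger 6.0.0 on mm10. The gene annotation is not given in the sources used here. Groups were taken from the labels. The deposited matrices hold 34940 cells and 20995280 to 45649061 UMIs per library, and the smooth muscle cells hold 4003522 UMIs in all.

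Cells, smooth muscle cells and the reference sets (pericytes, fibroblasts, endothelial cells, leukocytes) were chosen by UMI gates. Doublets were not removed, except in an alternative that dropped the highest Scrublet scores at 0.8% per 1000 deposited cells. UMIs were summed over the smooth muscle cells of a library and divided by their total (CPM). Ratios carry exact conditional 95% intervals of 2 counts and shares exact Clopper-Pearson intervals, both covering counting error only. A pair of libraries needed at least 20 smooth muscle cells on each side and a gene at least 50 UMIs over the pair. The floor for a count of 0 was 3 counts. With 1 library per group no p-value was computed. The code was tested on simulated data.

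Genes named by rank in comparisons of libraries were called genes with a UMI in at least 20% of the smooth muscle cells of the higher library. Their CPM there was at least 0.5 of that in each reference set. They are up to 10 in each direction called in both genotypes for ligation against sham, and 5 in each direction for 72 h against 24 h and for genotype at sham. The 12 highest and 8 lowest genes beside pericytes followed another rule. They needed the same direction in every library with at least 20 cells of both kinds. In each of these libraries the higher kind needed at least 100 CPM. They were ranked by the smallest size of their log2 ratio over these libraries. Mitochondrial, ribosomal protein, haemoglobin, sex-linked and gate genes were not named. The cells, the 12 gene lists and the rule were chosen with earlier results of these data known.

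Alternatives were other Myh11, depth and mitochondrial limits, thinning to 1000 UMIs, stricter gates, a mean over cells, TMM scaling, 20 UMIs over the pair and doublet removal. Leaving out cells over 3 times their library's median depth, or with 10 or more leukocyte marker UMIs, was chosen after seeing the data. Python 3.11.15, numpy 2.4.6, scipy 1.17.1, pandas 2.3.3, scanpy 1.11.5, matplotlib 3.10.9 and edgeR 4.0.16 (TMM only) were used. Promoter sequences are from RefSeq. Some genes are counted in the lists and totals and are not reported here by name.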

Additional observations from a re-analysis of the deposited data

Results flagged for a closer look

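The genes below were called in opposite directions in WT and KO by ligation at 24 h against sham, and for each of them the difference was not tested. Values are log2 ratios, with the UMIs after ligation against those in sham.

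Lyz2, Apoe and S100a8, genes of macrophages and neutrophils, were lower in WT and higher in KO. Lyz2 stood at -1.66 in WT (6 against 52 UMIs) and 3.59 in KO (160 against 49 UMIs). Apoe stood at -2.63 in WT (22 against 376 UMIs) and 1.89 in KO (125 against 124 UMIs). S100a8 stood at -1.16 in WT (49 against 302 UMIs) and 6.14 in KO (517 against 27 UMIs). The 4 neutrophil markers, of which S100a8 is 1, summed to 2609 CPM (994 UMIs) in the KO ligation 24 h library. In KO sham they summed to 43.4 CPM (61 UMIs). This sum is therefore not separate from S100a8. The part of cells with neutrophil markers in the result was not tested. Without the cells with 10 or more leukocyte marker UMIs S100a8 was at 1.29 (0.44 to 2.13) in WT and 3.26 (2.59 to 3.98) in KO, so that the 2 directions were then the same.

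Kcnj8, the pericyte potassium channel subunit, stood at -1.29 in WT (8 against 54 UMIs) and 2.04 in KO (38 against 34 UMIs), with 57.9% of the KO ligation UMIs in 1 cell. Dtd2 stood at -1.32 in WT (7 against 48 UMIs) and 1.05 in KO (18 against 32 UMIs).

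Hspa1a, Ctla2a and Rhox5 went the other way. Hspa1a, whose reads are shared with Hspa1b, stood at 1.23 in WT (57 against 67 UMIs) and -1.52 in KO (16 against 169 UMIs). Ctla2a stood at 2.46 in WT (62 against 31 UMIs) and -1.58 in KO (7 against 77 UMIs), and Rhox5 at 1.34 in WT (34 against 37 UMIs) and -1.12 in KO (8 against 64 UMIs). The difference was not tested for any of these genes, each ratio compares 1 library with 1 library, and chance was not assessed.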

How the results depend on the processing

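With 1 library per group, no value here has a check by replicates, and few cells limited every value after ligation, most of all at 72 h. No paired analysis was possible because no test was made and each group has 1 library. Under TMM scaling none of the 314 counts, list medians and gene ratios moved beyond its limit, which was 1.5 times for counts and the counting interval for ratios and, for medians, the typical reach of that interval to each side over the list's genes. Over all alternatives, 45 shares stayed and 3 moved, 59 counts of called genes stayed within 1.5 times and 21 did not, 391 list medians stayed, 20 moved and 5 reversed, and 1589 gene ratios stayed, 235 moved and 23 reversed. The cause of the changes below was not tested, beyond what each alternative leaves out.

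The share of smooth muscle cells was 4.69% in KO sham with at most 10% mitochondrial UMIs, and 1.22% at 24 h and 0.431% at 72 h after ligation in WT with cells thinned to 1000 UMIs. With 20 UMIs over the pair, more genes were measured: 298 were called higher and 232 lower for ligation against sham in WT (against 128 and 131), 267 and 165 in KO (against 112 and 98), 527 and 717 for 72 h against 24 h (against 261 and 355), 83 and 206 for KO against WT at sham (against 28 and 67), and 149 and 250 at 24 h after ligation (against 60 and 94).

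The 72 h comparison changed most. Without the cells over 3 times the median depth 33 genes were called higher and 165 lower, and with a mean over cells 79 and 187. The list medians, in that order, were -0.10 and -0.27 for contractile genes, 0.44 and 0.080 for channels, 0.23 and -0.14 for receptors, 0.12 and -0.28 for regulators, -1.07 and 1.07 for modulation and -0.95 and -0.49 for the hypoxia list. Without the deep cells the inflammatory median was -2.95 and the interferon-stimulated one 0.0069. The hypoxia median was 0.40 with at least 5 Myh11 UMIs, 0.51 with stricter gates, 0.51 with doublet removal and 0.77 with 20 UMIs. Ratios that reversed without the deep cells were Mustn1 0.14, Ppp1r12b 0.024, Ano1 0.048, Atp2b4 0.15, Gucy1a1 0.067, Epas1 0.077, Col1a2 -1.07, Vim -0.35, Sparc -0.25, Eno1 -0.14 and Sorbs2 0.081. With a mean over cells Loxl1 was -0.74 and Ltbp1 0.12.

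For ligation against sham in WT the modulation median was 0.50 with stricter gates and 0.41 with doublet removal, and the inflammatory median 1.52 with the latter. S100a8 reversed to 1.33, 2.17 and, without the cells with leukocyte markers, 1.29. In KO 61 genes were called higher with stricter gates, 74 with doublet removal and 51 without the cells with leukocyte markers, where the inflammatory median was 0.55. The KO modulation median was 0.51 as a mean over cells. Fn1 in KO reversed to -0.61 with stricter gates, -0.055 without deep cells and -0.039 without the cells with leukocyte markers, where Ier3 was -0.0027. For KO against WT at 24 h after ligation, 33 genes were called higher with stricter gates, 39 with doublet removal, 39 without deep cells and 31 without the cells with leukocyte markers, where the modulation median was -0.68 and the immediate early and heat shock median -1.03. Srgn reversed to -0.72 with doublet removal and -0.022 without deep cells, and S100a9 to -0.20 with stricter gates.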
